A study of Mus musculus with 9 samples.

Results

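The genes described here encode nucleolar factors that make ribosomes. They were taken from the deposited count table by symbol: names beginning with Utp, Nop, Rrp or Nol and a digit, Noc2l, Noc3l and Noc4l, Polr1a to Polr1e, and 20 further named genes such as Fbl, Ncl and Npm1. Nol3, Nol4 and its relative Nol4l fall under the same pattern and were left out. This gave 59 members of 46078 gene rows, and all 59 passed the expression filter of the test. Total RNA was sequenced in 9 libraries of C57BL/6J mice. The lymphoma group holds 6 libraries of T cell lymphoma cells from the thymus, in which the disease was induced by MYCN, a transcription factor of the MYC family. The control group holds 3 libraries of CD4 T cells from the spleen. Lymphomas are called 34, 53, 56, 70, 72 and 86 and controls CD4 1, 2 and 3, after their labels. The promoter that drives MYCN, the age of the animals and how the CD4 cells were purified are not given in the sources used here. Tissue of origin, proliferation, the share of counts that fell in genes and group coincide, so their parts in any difference cannot be told apart. In bulk RNA, fewer cells of a type and less RNA per cell cannot be told apart either.

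Ribosomes are assembled in the nucleolus. RNA polymerase I transcribes one long precursor RNA from the ribosomal DNA, small nucleolar ribonucleoproteins (snoRNPs) modify and guide it, and 2 sets of assembly factors cut and fold it into the small (40S) and the large (60S) subunit. The small subunit set includes the UTP proteins of the processome that forms on the 5′ part of the precursor, and the large subunit set includes Noc2l, Noc3l and the PeBoW complex of Pes1, Bop1 and Wdr12. Genes of this programme are well-known targets of MYC proteins, and resting lymphocytes enlarge their nucleoli when they begin to divide.

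Gene counts ranged from 11170704 to 15769679 in lymphoma and from 8099960 to 10808828 in CD4. They made up 38.7 to 49.1% of all counts, summary rows included, in lymphoma and 27.8 to 35.0% in CD4, without overlap. The T cell gene Cd3e stood at 150 to 217 CPM (counts per 1000000 of the TMM-scaled library) in lymphoma and 138 to 192 CPM in CD4. Cd4 itself reached 6.04 to 71.9 CPM in lymphoma against 199 to 263 CPM in CD4. The CD4 libraries also held genes of other lymphocytes: Cd8a at 25.6 to 31.8 CPM, Cd8b1 at 35.9 to 44.9 CPM and the B cell gene Cd79a at 8.16 to 10.1 CPM, against 0.0645 to 29.4, 0 to 47.6 and 0 to 0.433 CPM in lymphoma. The part of such cells in the CD4 values of the members was not tested. The row of the mouse gene Mycn held 0 to 3 counts in lymphoma and 0 to 6 in CD4, so it did not check the labels. Libraries of one group differed by more than counting noise in every pair, the closest being lymphomas 70 and 72. The labels do not say that each library came from a separate animal, so p-values measure the spread between these samples, which may be partly technical.

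Of the 59 members, 46 rose in lymphoma by edgeR's quasi-likelihood test (adjusted p under 0.05, Benjamini-Hochberg over 15401 tested genes) and 0 fell. Among all tested genes 46.6% were called, 24.7% higher and 21.9% lower. No member was lower at an unadjusted p under 0.05 either, by edgeR, DESeq2 or limma voom, and DESeq2 and voom called 44 members higher each. A rise of at least 2-fold was met by 32 members, against 17.9% of tested genes. In 43 members every lymphoma lay above every CD4 library, against 22.6% of tested genes. The median log2 fold change was 1.03 over members and 0.04 over all tested genes, and 57 of 59 fitted changes were positive. The members together made up 1.34% ± 0.265 (SD, n = 6) of the scaled counts in lymphoma and 0.461% ± 0.0337 (SD, n = 3) in CD4.

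Counts of called members and median changes are given by role. All 7 snoRNP and nucleolar shuttling factors rose at least 2-fold, with a median log2 fold change of 2.09. Of 19 large subunit factors, 16 rose and the median was 1.33. Of 8 genes of the polymerase I machinery, 7 rose, with a median of 0.91. The small subunit factors held most of the members that missed the threshold: 16 of 25 rose, 9 did not pass, and the median was 0.71. No test compared the role groups with each other.

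**Figure D1:**
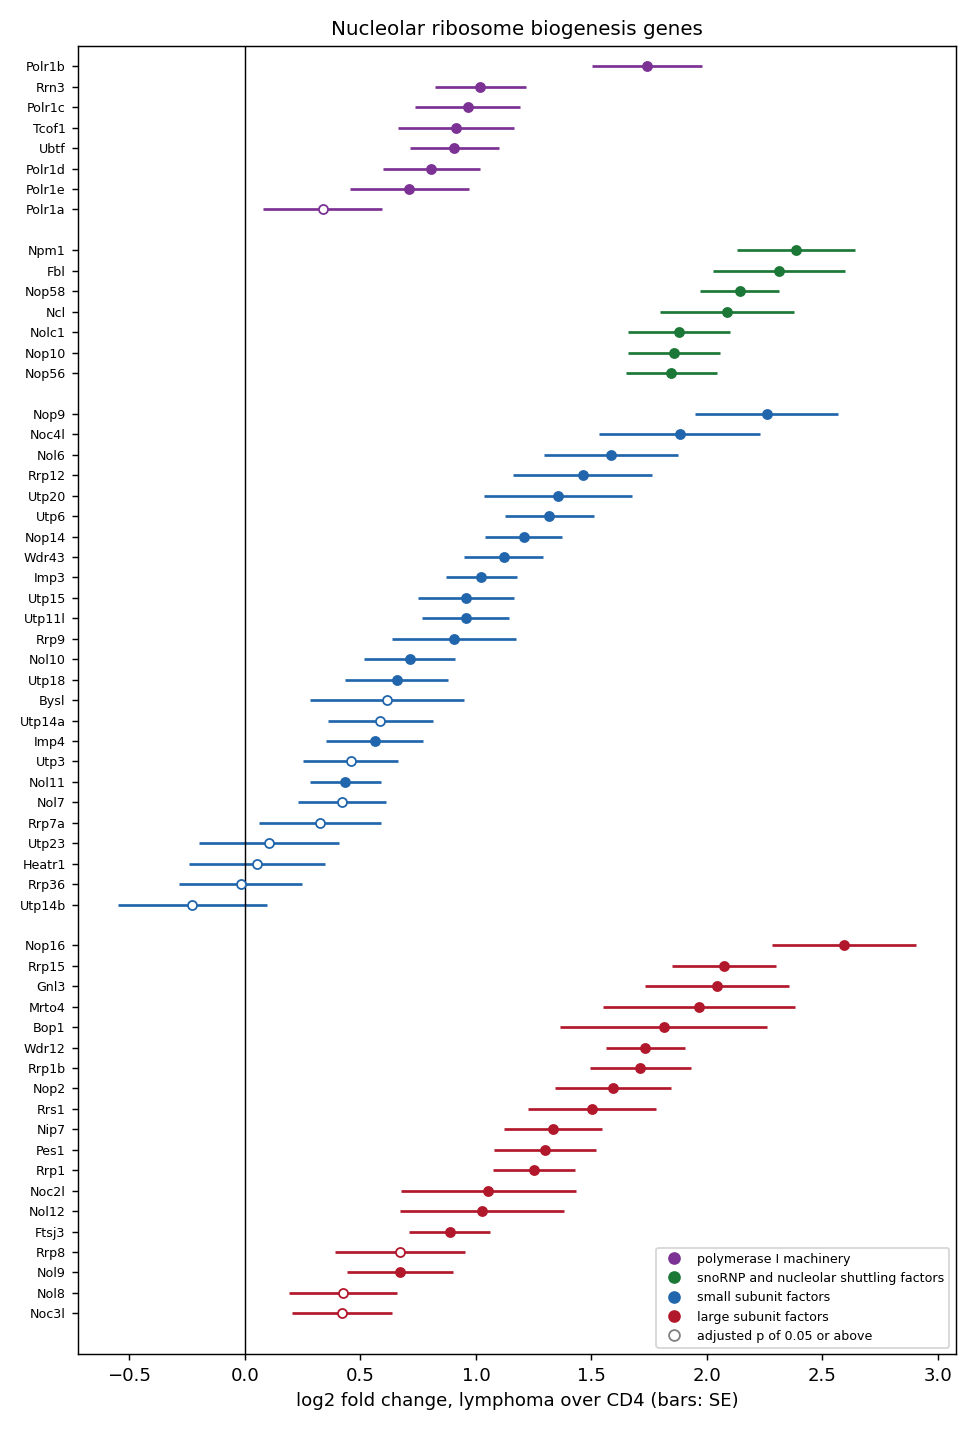
Fitted log2 fold change of each member (x axis, lymphoma over CD4, bars are SE), one row per gene, coloured by role; open circles missed the adjusted p of 0.05. The 7 green snoRNP and shuttling factors lie between 1.85 and 2.39, while the blue small subunit factors spread from -0.23 to 2.26.

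Because most members rose together, their promoters were searched for CACGTG, the E-box that MYC proteins bind with MAX. RefSeq promoters (GRCm38.p6, 250 bases before to 50 after a start) were found for 50 of the 59 members. CACGTG, which reads the same on both strands, was present in 10 of the 50 (20%), against 11.4% of 9849 tested genes with a promoter and 8.09% of all 27025 genes. The related letters CACGCG, on either strand, were present in 17 members (34%), against 19.7% and 10.49%. These shares are descriptions, and members chosen as ribosome genes are not a random draw. The median log2 fold change was 0.84 in the 10 members with CACGTG and 1.03 in those without, while over tested genes it was 0.20 with and 0.09 without. The stretches of 250 bases before the start are shown for 4 members that hold the motif upstream, 3 that rose (Rrn3, Nop2, Utp18) and 1 that did not pass (Rrp7a), on the gene's strand with CACGTG in capitals.
Rrn3: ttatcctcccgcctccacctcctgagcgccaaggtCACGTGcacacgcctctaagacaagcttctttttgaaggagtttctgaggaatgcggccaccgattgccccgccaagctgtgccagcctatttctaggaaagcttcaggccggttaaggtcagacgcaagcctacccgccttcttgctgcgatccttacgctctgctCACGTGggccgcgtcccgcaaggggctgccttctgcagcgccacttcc
Nop2: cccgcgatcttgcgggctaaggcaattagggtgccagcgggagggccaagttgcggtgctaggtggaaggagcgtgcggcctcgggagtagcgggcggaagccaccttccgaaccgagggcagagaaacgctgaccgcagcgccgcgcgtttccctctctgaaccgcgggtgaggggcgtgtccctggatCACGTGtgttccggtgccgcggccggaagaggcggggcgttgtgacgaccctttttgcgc
Utp18: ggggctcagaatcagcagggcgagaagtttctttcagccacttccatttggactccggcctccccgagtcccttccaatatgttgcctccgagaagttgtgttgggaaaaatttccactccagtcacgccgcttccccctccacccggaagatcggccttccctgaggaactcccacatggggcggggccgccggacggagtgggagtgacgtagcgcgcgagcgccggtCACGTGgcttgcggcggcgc
Rrp7a: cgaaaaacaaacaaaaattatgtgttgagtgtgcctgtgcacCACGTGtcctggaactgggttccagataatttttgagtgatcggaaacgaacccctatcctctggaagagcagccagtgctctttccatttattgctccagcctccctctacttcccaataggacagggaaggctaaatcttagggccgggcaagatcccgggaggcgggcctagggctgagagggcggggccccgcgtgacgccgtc
Rrn3 (chr16:13780449-13780698, + strand) held 2 copies, ending 210 and 43 bases before the start. Nop2 (chr6:125131633-125131882, + strand) held 1, ending 55 bases before it, and Utp18 (chr11:93885767-93886016, - strand) 1, ending 15 bases before it. In Rrp7a (chr15:83122802-83123051, - strand) the motif ended 203 bases before the start. Presence of the letters does not show binding.

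Within the polymerase I machinery, the 2 largest subunits took the first and the last place in size of change. Polr1b, the second-largest subunit and part of the catalytic centre, had 27.0 CPM in the lowest lymphoma, 38.7 in the median and 49.9 in the highest, against 11.7, 10.4 and 12.1 CPM in CD4 1, 2 and 3. Every lymphoma stood more than 2-fold above every CD4 library, and the log2 fold change was 1.74 (SE 0.239, edgeR adjusted p 0.000117). Polr1a, the largest subunit, had 48.3, 65.3 and 114 CPM at the lowest, median and highest lymphoma and 68.6, 51.6 and 47.4 CPM in CD4. Its groups overlapped, and its log2 fold change of 0.34 (SE 0.258) did not pass (edgeR adjusted p 0.313). The log2 ratio of Polr1b to Polr1a was -0.85 ± 0.216 (SD, n = 6) in lymphoma and -2.26 ± 0.289 (SD, n = 3) in CD4, without overlap. The exact two-sided permutation p of that difference of 1.40 was 0.0238, the smallest that 6 against 3 libraries allow. After adjustment over 12 ratios between partners, all chosen after the values had been seen, it was 0.286, and none of the 12 passed. With so few libraries a single ratio at the smallest possible p could not have passed, so this miss does not show equal ratios.

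Polr1c and Polr1d, subunits that polymerases I and III share, both rose. Polr1c ranged over 79.1, 90.1 and 129 CPM in lymphoma (lowest, median, highest) and stood at 63.5, 34.8 and 46.9 CPM in CD4, for a log2 change of 0.96 (SE 0.228, edgeR adjusted p 0.0045). Polr1d had 118, 149 and 198 CPM against 95.3, 71.6 and 94.6 CPM, a change of 0.81 (SE 0.209, edgeR adjusted p 0.00755). All lymphomas exceeded all CD4 libraries in both genes. Polr1e, an associated subunit found only in polymerase I, had 20.2, 23.9 and 39.4 CPM against 17.5, 16.2 and 13.4 CPM. Its rise of 0.71 (SE 0.258, edgeR adjusted p 0.0396) was close to the threshold, and the highest value belonged to lymphoma 53.

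The genes of the factors that bring polymerase I to the ribosomal DNA rose by similar amounts. Rrn3, which links the polymerase to the promoter factors, had 53.5, 62.1 and 91.2 CPM in lymphoma and 34.8, 30.1 and 30.8 CPM in CD4 (log2 fold change 1.02, SE 0.197, edgeR adjusted p 0.00127). Ubtf, the HMG box protein that keeps ribosomal DNA open, had 187, 210 and 309 CPM against 135, 128 and 108 CPM (0.91, SE 0.193, edgeR adjusted p 0.00231). For Tcof1, whose protein treacle supports transcription and methylation of the precursor, the values were 304, 407 and 662 CPM against 224, 236 and 253 CPM (0.91, SE 0.250, edgeR adjusted p 0.0105). In all 3 genes the groups did not overlap and lymphoma 53 was the highest library.

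The snoRNP genes rose within a narrow range, from 1.85 to 2.39 on the log2 scale with the shuttling factors included. Box C/D snoRNPs place methyl groups on the precursor RNA through the methyltransferase fibrillarin (Fbl) on a scaffold of Nop56 and Nop58. Fbl had 201, 278 and 445 CPM in lymphoma (lowest, median, highest) and 67.8, 49.9 and 63.7 CPM in CD4, for a log2 change of 2.31 (SE 0.285, edgeR adjusted p 5.28e-05). Nop58 had 813, 994 and 1234 CPM against 235, 217 and 244 CPM (2.14, SE 0.170, edgeR adjusted p 2.1e-06). Nop56 had 217, 259 and 328 CPM against 55.7, 74.0 and 88.1 CPM (1.85, SE 0.198, edgeR adjusted p 1.9e-05). The RNA of the 3 core genes thus lay 3.60 to 4.97-fold higher, and in each the lowest lymphoma was more than 2-fold above the highest CD4 library. The log2 ratios of Nop58 and Fbl to Nop56 overlapped between the groups (exact two-sided permutation p 0.190 and 0.238).

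Nop10, a subunit of the H/ACA snoRNPs that convert uridine to pseudouridine, had 377, 487 and 639 CPM in lymphoma against 136, 129 and 138 CPM in CD4 (1.86, SE 0.199, edgeR adjusted p 1.9e-05). Nolc1, a chaperone that binds both snoRNP classes, had 247, 361 and 439 CPM against 102, 80.4 and 104 CPM (1.88, SE 0.219, edgeR adjusted p 3.51e-05). No lymphoma came near the CD4 range for either gene. Nucleolin (Ncl), an abundant RNA-binding protein of the nucleolus, had 1934, 2589 and 4729 CPM against 808, 539 and 672 CPM (2.09, SE 0.290, edgeR adjusted p 0.000126). Nucleophosmin (Npm1), a nucleolar chaperone and the member with the largest rise of this group, had 1493, 1824 and 3006 CPM against 415, 326 and 448 CPM (2.39, SE 0.254, edgeR adjusted p 1.82e-05). Reads aligned to more than 1 place are in no gene's count, so a gene with near-identical processed copies, such as Npm1, may be undercounted in every library.

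**Figure D2:**
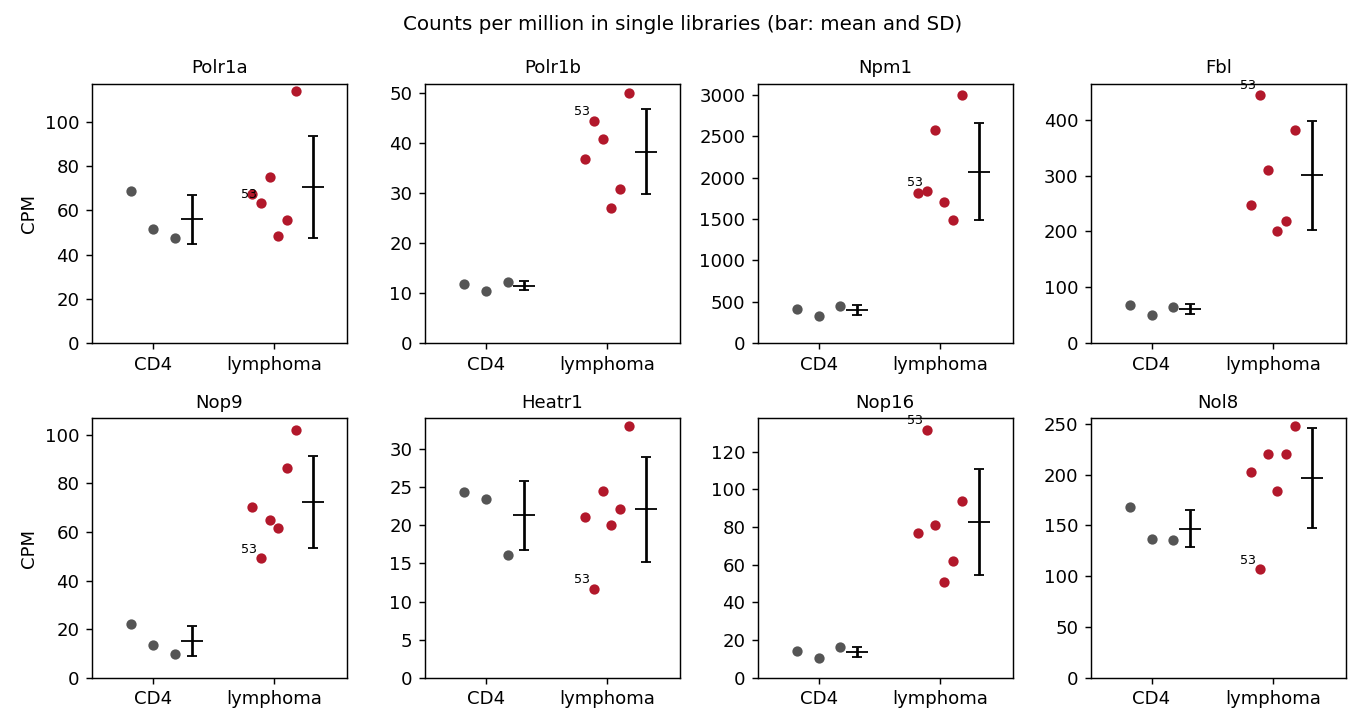
CPM of 8 members in single libraries (y axis from 0, one panel per gene, points are libraries, bars are mean and SD, lymphoma 53 is marked). Polr1b, Npm1, Fbl, Nop9 and Nop16 show no overlap between the groups, while Polr1a, Heatr1 and Nol8 do.

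Among small subunit factors the largest rises were those of Nop9, Noc4l and Nol6. Nop9, an RNA-binding protein of the pre-40S particle, had 49.2, 67.5 and 102 CPM in lymphoma and 22.1, 13.3 and 9.91 CPM in CD4 (2.26, SE 0.310, edgeR adjusted p 0.000116). Noc4l, the partner of Nop14, had 39.9, 61.9 and 94.4 CPM against 17.8, 9.96 and 24.7 CPM (1.88, SE 0.348, edgeR adjusted p 0.000948). Nol6, the counterpart of yeast Utp22, had 33.4, 51.7 and 72.8 CPM against 15.6, 22.6 and 14.2 CPM (1.58, SE 0.290, edgeR adjusted p 0.000888). In all 3 genes the groups stayed apart, and the CD4 libraries were themselves uneven, CD4 3 being lowest for Nop9 and CD4 2 for Noc4l. Rrp12, Utp20, Utp6, Nop14, Wdr43 and Imp3 rose by 1.02 to 1.46, and Utp15, Utp11l, Rrp9, Nol10, Utp18, Imp4 and Nol11 by 0.43 to 0.96. Of these 16 genes only Utp18 overlapped between the groups, where lymphoma 53 had 40.5 CPM and CD4 3 had 43.9 CPM.

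The 9 small subunit members that did not pass include proteins that act in the same particle. Heatr1, the counterpart of yeast Utp10, had 11.7, 21.6 and 33.0 CPM in lymphoma and 24.3, 23.5 and 16.1 CPM in CD4 (0.05, SE 0.293, edgeR adjusted p 0.901). Rrp36, which takes part in early cleavages, had 9.61, 11.98 and 17.6 CPM against 13.5, 12.6 and 11.8 CPM (-0.02, SE 0.267, edgeR adjusted p 0.963). Utp23, which takes part in the release of a snoRNA from the precursor, had 31.0, 36.6 and 82.6 CPM against 47.9, 39.0 and 34.5 CPM (0.10, SE 0.303, edgeR adjusted p 0.809). For these 3 genes the median lymphoma lay inside the CD4 range. The sign depended on the scaling for Heatr1, at -0.0082 with RLE and -0.05 with upper quartile scaling, and for Utp23, at -0.0065 with upper quartile scaling. Without lymphoma 53 the change of Utp23 was -0.19 (edgeR adjusted p 0.376), and without lymphoma 86 or CD4 3 that of Heatr1 was -0.06 or -0.10. Rrp36 turned positive without lymphoma 34, 56 or 70 or without CD4 1 (0.02 to 0.09).

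The remaining small subunit members that missed the threshold stood mostly above CD4. Utp14a, which works with an RNA helicase of the processome, had 58.4, 87.9 and 112 CPM against 57.1, 65.0 and 50.8 CPM (0.59, SE 0.228, edgeR adjusted p 0.0525). Utp3 had 199, 238 and 343 CPM against 225, 160 and 152 CPM (0.46, SE 0.205, edgeR adjusted p 0.087). Nol7 had 155, 229 and 281 CPM against 193, 144 and 162 CPM (0.42, SE 0.191, edgeR adjusted p 0.0917). These 3 came nearest to the threshold of the 9. Bysl, a factor of late 40S maturation, had 15.4, 22.8 and 40.4 CPM against 18.2, 14.2 and 18.9 CPM (0.62, SE 0.333, edgeR adjusted p 0.151). Rrp7a had 11.3, 13.2 and 20.7 CPM against 12.1, 10.4 and 10.7 CPM (0.33, SE 0.266, edgeR adjusted p 0.343). Lymphoma 53 was the highest library for both.

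Utp14b, a retrogene copy of Utp14a, had 14.2, 18.2 and 31.6 CPM against 15.1, 18.7 and 34.3 CPM (-0.23, SE 0.321, edgeR adjusted p 0.597; 0.21 without CD4 3). It shares 244 exon bases with Acsl3 on the same strand in GENCODE M21, so its count may miss reads set aside as ambiguous. In all, 24 members share exon bases with another annotated gene, on the same or the opposite strand. The strand setting of the counting is not given in the sources used here, so the values of these genes are less certain. Among them are Nop9 (1136 bases with Cideb), Noc2l (598 with Samd11), Nol7 (453 with Ranbp9) and Heatr1 (155 with Lgals8). Members with large rises, such as Ncl, Nop56, Nop58, Gnl3, Bop1 and Wdr12, are also among the 24.

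Large subunit factors held the member with the largest change of all. Nop16, a protein of the early pre-60S particle, had 51.0, 78.9 and 132 CPM in lymphoma and 14.2, 10.7 and 16.1 CPM in CD4 (2.59, SE 0.312, edgeR adjusted p 4.42e-05, 6.03-fold). Rrp15 had 41.5, 52.5 and 66.3 CPM against 12.6, 14.2 and 11.2 CPM (2.07, SE 0.224, edgeR adjusted p 2.02e-05). Gnl3, the GTPase nucleostemin, had 225, 515 and 650 CPM against 112, 103 and 144 CPM (2.04, SE 0.312, edgeR adjusted p 0.000259). None of the 3 overlapped between the groups. The PeBoW genes all rose, Wdr12 by 1.73 (SE 0.171), Bop1 by 1.81 (SE 0.448) and Pes1 by 1.30 (SE 0.220). The log2 ratios of Bop1 to Pes1 and of Wdr12 to Bop1 overlapped between the groups (exact two-sided permutation p 0.333 and 0.810). The ratio of Bop1 to Pes1 differed by 0.56 between the groups, with an SD of 0.884 in CD4. Its overlap therefore does not show that the rises were equal. Bop1 was the least even of the 3, from 49.0 to 152 CPM among lymphomas and 9.72 to 31.2 CPM in CD4.

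The paralogues Rrp1 and Rrp1b rose by 1.25 and 1.71, and their ratio overlapped between the groups (exact two-sided permutation p 0.0714, 0.286 over the 12 ratios). Mrto4, a ribosome stalk protein relative, rose by 1.97, the RNA methyltransferases Nop2 and Ftsj3 by 1.59 and 0.89, Rrs1 by 1.502 and Nip7 by 1.33. Noc2l, Nol12 and Nol9 rose by 1.05, 1.03 and 0.67 with adjusted p of 0.0386, 0.0328 and 0.0314. Noc2l and Nol9 overlapped between the groups through lymphoma 53, which had 20.4 CPM of Noc2l and 44.3 CPM of Nol9, while CD4 2 had 39.1 and 52.1 CPM.

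Rrp8, Nol8 and Noc3l did not pass. Rrp8, a methyltransferase of the large subunit RNA, had 27.99, 35.0 and 47.1 CPM against 34.4, 20.2 and 14.7 CPM (0.67, SE 0.280, edgeR adjusted p 0.0679). Nol8 had 107, 211 and 248 CPM against 168, 137 and 136 CPM (0.42, SE 0.233, edgeR adjusted p 0.159). Noc3l, which pairs with Noc2l, had 21.7, 26.7 and 32.5 CPM against 15.9, 20.8 and 23.4 CPM (0.42, SE 0.216, edgeR adjusted p 0.135). The groups overlapped in each: in Rrp8 through CD4 1, which stood above the other CD4 libraries, in Nol8 through lymphoma 53, and in Noc3l through lymphomas 34 and 53.

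The calls of 38 members held in all 18 alternative fits, and no called member changed sign. The other 8 lost theirs in at least 1 fit. Rrp9 lost it without CD4 2 (edgeR adjusted p 0.0791) and Utp18 without CD4 1 or CD4 2 (0.0888 and 0.110). Nol12 lost it without CD4 1, 2 or 3 (0.0956, 0.0537 and 0.0990). Polr1e lost it without lymphoma 56 or CD4 1, 2 or 3 (0.0556, 0.0514, 0.0847 and 0.130). For Imp4 this was so without lymphoma 56 or 86 or CD4 1, 2 or 3 (0.0621, 0.0565, 0.0868, 0.132 and 0.0746), and for Nol11 without CD4 1 or 2 (0.0696 and 0.123). For Noc2l it was so without lymphoma 34, 56, 72 or 86 or CD4 1 or 3 (0.0520, 0.0624, 0.0672, 0.0643, 0.138 and 0.146), and for Nol9 without lymphoma 56, 72 or 86 or CD4 1 or 3 (0.0530, 0.0504, 0.0503, 0.112 and 0.0854). Other settings also ended calls of these genes. RLE scaling did so for Polr1e, Imp4 and Nol11 (0.0564, 0.066 and 0.0604), and upper quartile scaling for Polr1e, Utp18, Imp4, Nol11, Noc2l and Nol9 (0.0574 to 0.0862). Polr1e lost its call by library size alone (0.0503), and limma voom ended those of Polr1e and Imp4 (0.0637 and 0.0553). DESeq2 and the filter of at least 10 counts in every library ended those of Imp4 (0.0683 and 0.0541) and Nol11 (0.0536 and 0.0563), and Nol11 also missed with no filter (0.0669). With the trend of counts with GC content and transcript length removed, Polr1e, Rrp9, Noc2l, Nol12 and Nol9 missed (0.0552 to 0.158), and Noc2l missed with lymphomas 34, 70 and 72 averaged (0.0733). Over all fits the adjusted p reached at most 0.130 for Polr1e, 0.158 for Rrp9, 0.110 for Utp18, 0.132 for Imp4, 0.123 for Nol11, 0.146 for Noc2l, 0.0990 for Nol12 and 0.132 for Nol9, and its lowest values lay between 0.00209 and 0.0281. The log2 fold change of Rrp9 with that trend removed was 0.42. The rises of these 8 genes were 0.43 to 1.05.

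In the other direction, 7 of the 13 members without a call gained one in at least 1 fit. Nol8 and Nol7 passed without lymphoma 53 (0.55 and 0.50, edgeR adjusted p 0.00623 and 0.0126). Rrp8 passed without CD4 1 or lymphoma 70 (edgeR adjusted p 0.00803 and 0.0481), Utp3 without CD4 1 (0.0380), and Utp14a without lymphoma 34, 70 or 72 (0.0388, 0.0312 and 0.0231). With the GC and length trend removed, Nol8, Nol7, Utp14a and Noc3l passed (edgeR adjusted p 0.0129, 0.0101, 0.0428 and 0.0332). Averaging lymphomas 34, 70 and 72 into 1 sample made Bysl and Utp14a pass (0.0484 and 0.0166), and Utp14a also passed with no filter (0.0447). Over all fits the adjusted p ranged from 0.00623 to 0.325 for Nol8, from 0.0101 to 0.273 for Nol7, from 0.00803 to 0.248 for Rrp8, from 0.0380 to 0.263 for Utp3, from 0.0166 to 0.163 for Utp14a, from 0.0332 to 0.342 for Noc3l and from 0.0484 to 0.347 for Bysl. Polr1a, Rrp7a, Utp23, Heatr1, Rrp36 and Utp14b passed in none.

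Other ribosome biogenesis genes, from lists that do not use the symbol rule, were read in the same fit. All 14 listed genes of snoRNP assembly and pseudouridylation rose (median log2 fold change 1.56). The largest rise was that of Naf1, which assembles H/ACA particles, with 61.0 ± 16.9 CPM (SD, n = 6) in the lymphomas against 9.94 ± 1.72 CPM (SD, n = 3) in the CD4 libraries (2.61, SE 0.278, edgeR adjusted p 1.82e-05). Of 13 genes of the RNA exosome, which trims ribosomal precursors, 10 rose and 0 fell, led by Exosc5 (2.02, SE 0.215, edgeR adjusted p 1.84e-05). Of 48 further large subunit factors 25 rose and 0 fell (median 0.74), with Nsun2 first (2.005, SE 0.219, edgeR adjusted p 2.22e-05). Nsun2 is a cytosine methyltransferase that acts mainly on transfer RNA, and the next gene in the list was Nifk, a nucleolar protein (1.96, SE 0.185, edgeR adjusted p 7.76e-06), named after its value was seen.

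Falls were called in the other 2 lists. Of 38 tested small subunit factors outside the rule 27 rose and 2 fell, with a median of 0.84. That lay above the 0.74 of the large subunit factors outside the rule, the reverse of the order among members. The falls were Nsun4 (-1.05, SE 0.205, edgeR adjusted p 0.0013) and Riok3 (-0.50, edgeR adjusted p 0.0319), while Lyar rose most (2.11, SE 0.212, edgeR adjusted p 1.22e-05). Nsun4 is a methyltransferase of mitochondrial ribosomal RNA, so it is listed here without being a nucleolar factor. Of 14 tested further polymerase I factors 8 rose, led by Polr2f, a subunit common to the nuclear polymerases (2.08, SE 0.276, edgeR adjusted p 8.84e-05). The 8 also include Polr2e, Polr2h and Polr2k, subunits of the same kind, beside Cd3eap, Twistnb, Taf1d and Mybbp1a. Polr2l (1.07), Taf1b (0.07), Znrd1 (0.03) and Taf1a (-0.49) did not pass (edgeR adjusted p 0.106, 0.848, 0.946 and 0.138). Baz2a, a subunit of the complex that silences ribosomal DNA repeats, fell: lymphomas had 87.2 ± 13.03 CPM (SD, n = 6) and CD4 libraries 296 ± 37.9 CPM (SD, n = 3), and the log2 change was -1.76 (SE 0.161, edgeR adjusted p 5.96e-06). Ttf1, which stops polymerase I at the end of the ribosomal unit, fell by 0.81 (edgeR adjusted p 0.004).

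Lymphomas differed among themselves in the level of the members. The median member stood 1.11 ± 0.201 (SD, n = 6) log2 units above the CD4 mean, with single lymphomas at 0.98 (34), 1.33 (53), 1.20 (56), 0.88 (70), 0.93 (72) and 1.33 (86), and CD4 libraries at 0.10, -0.10 and 0.03. Lymphomas 53 and 86 shared the highest median, 34, 70 and 72 were lowest, and no lymphoma came near the CD4 libraries. Lymphoma 86 was the highest of the 6 in 33 of 59 members (55.9%, against 19.3% of all tested genes). Lymphoma 70 was the lowest in 19 members (32.2%, against 11.9%) and lymphoma 72 in 17 (28.8%, against 14.1%). The order was similar within roles: snoRNP and shuttling factors ranged from 1.74 in lymphoma 70 to 2.41 in 86, and large subunit factors from 1.04 in 70 to 1.69 in 86. Polymerase I genes ranged from 0.53 in 70 to 1.33 in 53. Of the lymphomas, 86 also had the largest share of counts in genes (49.1%). The same held for its summed proliferation genes (5686 CPM) and erythroid markers (904 CPM), lists described below. Lymphoma 53, with a like member level, had the smallest share (38.7%) and proliferation sum (4144 CPM), and 217 CPM of erythroid markers. The part of these in the member level was not tested.

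**Figure D3:**
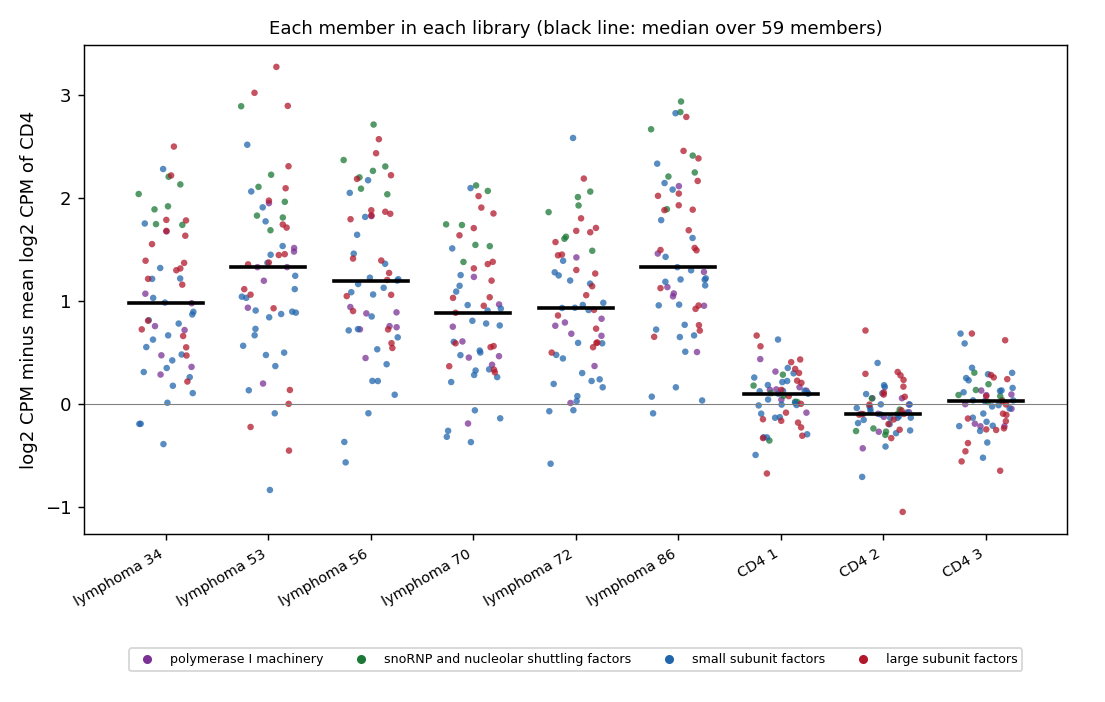
Log2 CPM of each member minus its mean over the 3 CD4 libraries (y axis) in each of the 9 libraries (x axis), coloured by role, with the median over 59 members as a black line. The 6 lymphoma medians lie between 0.88 and 1.33 and the CD4 medians between -0.10 and 0.10.

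Lymphoma 53 differed most from the other libraries of its group over all genes. It was the highest of the 6 lymphomas in 22 members (37.3%, against 30.5% of all tested genes) and the lowest in 14 (23.7%, against 33.3%). It was thus at an end of the range in 36 members (61.0%), a share near that of all tested genes (63.8%). Noc2l fell furthest below the other lymphomas, at 20.4 CPM against 44.1 to 67.4 CPM, a deviation of -1.51 log2 units from the mean of the others. Gnl3 followed, at 225 against 413 to 650 CPM (-1.26), then Heatr1 (-1.01) and Nol8, at 107 against 184 to 248 CPM. On the other side, Nol12 stood at 133 against 45.4 to 58.8 CPM (1.41), Mrto4 at 153 against 51.3 to 85.5 CPM (1.28) and Bop1 at 152 against 49.0 to 91.4 CPM (1.24). Large subunit factors were thus among both the highest and the lowest. The deviation of lymphoma 53 had a correlation of 0.370 with GC content over the 59 members and 0.152 over 15329 genes, a description across genes of 1 library. The median SD of a member among lymphomas was 0.329 log2 units with lymphoma 53 and 0.271 without it, below that of all genes (0.465 and 0.341). Members and all genes were not matched for count level, on which this SD depends. The lower value therefore does not show that members are more even among lymphomas than other genes of like level.

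**Figure D4:**
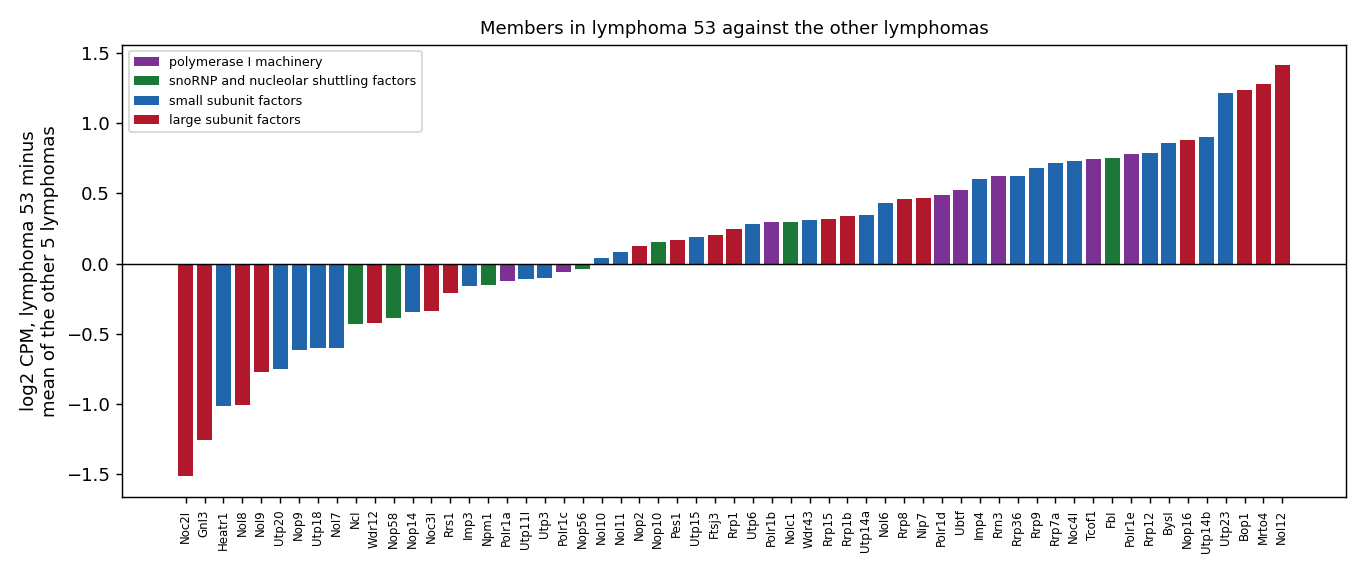
Deviation of lymphoma 53 from the mean of the other 5 lymphomas in log2 units (y axis) for each member (x axis), coloured by role. Values run from -1.51 for Noc2l to 1.41 for Nol12, and each role has members on both sides of 0.

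Other genes moved with the groups. All 20 listed proliferation genes rose at least 2-fold (median 3.43), and their summed level was 4144 to 5686 CPM in lymphoma and 473 to 626 CPM in CD4. Their part in the rise of the members was not tested. Summed B cell markers reached 1630 to 2003 CPM in the CD4 libraries and 13.7 to 19.8 CPM in lymphoma, and all 15 were lower in lymphoma. Myeloid markers summed to 71.4 to 2270 CPM in lymphoma and 877 to 1000 CPM in CD4, with 7 of 15 lower, and erythroid markers to 24.7 to 904 and 102 to 362 CPM, with 1 of 9 tested higher. Stromal and thymic epithelial markers summed to 105 to 182 CPM in lymphoma, with Cdh5 and Lum at 0, and to 221 to 241 CPM in CD4, with Dcn, Foxn1, Krt5, Krt8 and Lum at 0. Of 8 tested, 3 were higher in lymphoma (Dcn, Epcam and Cxcl13) and 2 lower (Pecam1 and Kdr). Pecam1 made up 186 to 199 CPM of the CD4 sum, and without it the sum was 42.1 to 100.7 CPM in lymphoma and 33.9 to 42.00 CPM in CD4. T cell markers summed to 1854 to 3534 CPM in lymphoma and 2628 to 2692 CPM in CD4, with 2 of 10 lower. The part of these cells in the values of the members was not tested.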

How the data were processed

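Total RNA libraries were sequenced; per the submitters' processing notes, FastQC, HISAT2, SAMtools and HTSeq were used with the mouse build mm10 (GRCm38), while versions, annotation and strand setting are not given in the sources used here. The authors deposited raw counts per gene, and 5 summary rows that name no gene were left out. The 59 members and all lists were chosen with earlier results of these data known. Every member is named. CPM is given for each CD4 library and as the lowest, median and highest lymphoma for polymerase I and snoRNP members, the 3 largest rises per subunit and members that did not pass, and of each other list the largest rise and fall. Counts were fitted with edgeR 4.0.16 (TMM, filterByExpr minimum count 10, quasi-likelihood, 6 lymphoma against 3 CD4 libraries), adjusted by Benjamini-Hochberg over 15401 genes. The SE is the log2 fold change divided by the root of F. Log2 CPM used a prior count of 2. Alternatives used other scalings and filters, DESeq2 1.42.0, limma voom 3.58.1 and each library left out. A level of 3 counts is 0.190 to 0.370 CPM. The procedure was also run on simulated data with fewer changed genes and less spread between replicates than here. The biological coefficient of variation of these data was 0.462, so that run does not measure the error of these calls. Ratios used exact permutation tests (scipy 1.17.1), and exon overlaps GENCODE M21.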

Additional observations from a re-analysis of the deposited data

Results flagged for a closer look

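In 9 of 59 members the highest of the 6 lymphomas stood far from the rest in CPM. Its gap to the next library, as a share of the whole range, passed Dixon's 95% critical value. On CPM, high values lie further apart than on the log2 scale used for the deviations of lymphoma 53. The list and its direction hold for CPM only and could differ on log2 CPM. Chance gives such a gap in about 1 of 20 groups, or 2.95 members. However, 16.8% of all tested genes had such a library, against 15.3% of members. Lymphoma 53 was that library in 7 members (11.9%) and in 11.8% of all tested genes, so the members are not set apart by it. For Nol12 the gap was 0.846 of the range (133 against 45.4 to 58.8 CPM), for Rrp7a 0.792 (20.7 against 11.3 to 13.3 CPM), for Utp23 0.785 (82.6 against 31.0 to 42.1 CPM) and for Rrn3 0.751 (91.2 against 53.5 to 62.9 CPM). For Polr1e it was 0.674 (39.4 against 20.2 to 26.4 CPM), for Utp14b 0.667 (31.6 against 14.2 to 19.998 CPM) and for Mrto4 0.663 (153 against 51.3 to 85.5 CPM). Lymphoma 86 stood apart for Nol10, at 0.674 (87.7 against 52.3 to 63.8 CPM), and lymphoma 72 for Utp3, at 0.644 (343 against 199 to 251 CPM).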

How the results depend on the processing

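The number of members called higher ranged from 40 to 48 when 1 library was left out and was 36 at an adjusted p under 0.01; the number called lower was 0 in every fit. Members at least 2-fold higher numbered 28 to 38, and the median log2 fold change was 0.92 to 1.15. Upper quartile scaling moved the median of all genes from 0.04 to -0.06. No called member changed sign. Of those not called, Utp23 was -0.0065 with upper quartile scaling and ranged from -0.19 (without lymphoma 53) to 0.25 (without CD4 1) with 1 library left out. Heatr1 was -0.0082 with RLE, -0.053 with upper quartile scaling, -0.016 with at least 10 counts in every library and -0.0063 by DESeq2, and with 1 library left out ranged from -0.10 (CD4 3) to 0.18 (lymphoma 53), -0.06 without lymphoma 86. Rrp36 was 0.0050 with no filter, 0.12 with lymphomas 34, 70 and 72 averaged, and from -0.14 (without lymphoma 53) to 0.086 (without lymphoma 70). Utp14b was 0.26 after removal of the trend with GC and length, and from -0.44 (without CD4 1) to 0.21 (without CD4 3). The cause was not tested. This averaging and trend removal were chosen after seeing the data. No paired analysis was possible because lymphoma and CD4 libraries share no replicate numbers.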
